A study of Homo sapiens with 2 samples.

Results

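The 8 array probes examined here read stress-response genes in human cells given the sphingosine kinase 2 inhibitor ABC294640. They were chosen by probe identifier and belong to 7 genes. HMOX1, NQO1 and SRXN1 stand for the oxidative stress response, HSPA1A and HSPA6 for the heat shock response, and CDKN1A (with 2 probes) and GDF15 for the p53 response. They are 8 of the 47318 probes measured, or 7 of the 20045 genes with a named probe, and the platform's gene annotation gave all 8 the symbol by which they were chosen. ABC294640 is a small molecule that inhibits one of the enzymes converting sphingosine into sphingosine 1-phosphate, a lipid signal. TIVE-LTC cells received ABC294640 at 60 µM in one group and vehicle in the other, both for 24 h. Both groups share the same cell line, described as human umbilical vein endothelial cells made immortal with telomerase. The line carries a long-lasting infection with Kaposi's sarcoma-associated herpesvirus. Most endothelial marker genes were not detected in it, as given below. Uninfected cells were not analysed here. Each group is 1 array of total RNA, so no ratio has a replicate error and none could be tested.

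The 3 responses are programmes of defence against different kinds of damage. Oxidants and electrophiles release the transcription factor NRF2 (gene NFE2L2) from its inhibitor KEAP1, and NRF2 then activates genes of detoxification and of thiol and haem metabolism. Misfolded proteins free the transcription factor HSF1, which activates the chaperones of the HSP70, HSP40 and HSP90 families. DNA damage and other stresses stabilise p53, which activates genes of cell cycle arrest, DNA repair and cell death. Several of these genes answer to more than one programme: HMOX1 is also activated by haem, metals and heat, and GDF15 and CDKN1A also respond independently of p53.

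A probe was taken as detected when its deposited detection p, a comparison with negative control probes on the same array, was under 0.01. The ABC294640 array detected 15957 probes and the vehicle array 17477, and 18233 were detected on at least 1 of them. The lowest detected signals were 76.2 intensity units with ABC294640 and 81.2 with vehicle. Ratios below are log2 ratios of ABC294640 over vehicle after background correction and quantile normalization. Where only 1 array detected a probe, its fold was computed against the detection floor of the other array and is written "at least"; such a bound holds for this processing and moves with the background correction and scaling. Over these 18233 probes the log2 ratios had a median of -0.07, against 0.16 after scaling both arrays to a common median and -0.65 with no scaling between the arrays. Single probes moved by more or by less than these shifts, so the direction of a small ratio can depend on the scaling.

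The marker genes mostly did not bear out the endothelial label. Of 13 endothelial markers, 2 were detected on either array. ENG (endoglin) had 176.0 units with ABC294640 and 181.4 with vehicle. TEK, an angiopoietin receptor, had 76.7 units with ABC294640 and 82.1 with vehicle, close to the detection limit. PECAM1, CDH5, VWF and KDR, which define endothelial cells, were not detected on either array, nor were any of the 4 lymphatic endothelial markers. Summed signals of the 13 genes were 818.5 units with ABC294640 and 865.5 with vehicle. Most of each sum is background, since 11 of the 13 genes were not detected. The negative controls averaged 53.8 units with ABC294640 and 56.1 with vehicle. Of 6 fibroblast markers 2 were detected, DCN with 377.1 units with ABC294640 and 675.5 with vehicle, and LUM with 111.3 and 129.4 units in the same order. No epithelial marker of 5 was detected. Among 8 leukocyte markers, CD14 had 171.3 units with ABC294640 and 95.8 with vehicle, LYZ was detected with vehicle only, and PTPRC, CD3E and MS4A1 were not detected. The part of these differences in the stress gene results was not tested.

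Of the 8 stress probes 3, or 37.5%, were at least 2-fold higher with ABC294640: HMOX1, HSPA1A and HSPA6. None was at least 2-fold lower. These are bulk RNA samples, in which fewer cells of a kind and less RNA per cell cannot be told apart. For comparison, 7.38% of the 18233 detected probes were at least 2-fold higher and 6.96% at least 2-fold lower. The members were picked with earlier results of these data known, so the share describes them and is not evidence about stress genes in general. By response, both heat shock probes, 1 of 3 oxidative stress probes and none of 3 p53 probes were called at least 2-fold higher. The CDKN1A probe annotated to NM_078467 had only a lower bound, of 1.90-fold, so its call is open.

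**Figure D1:**
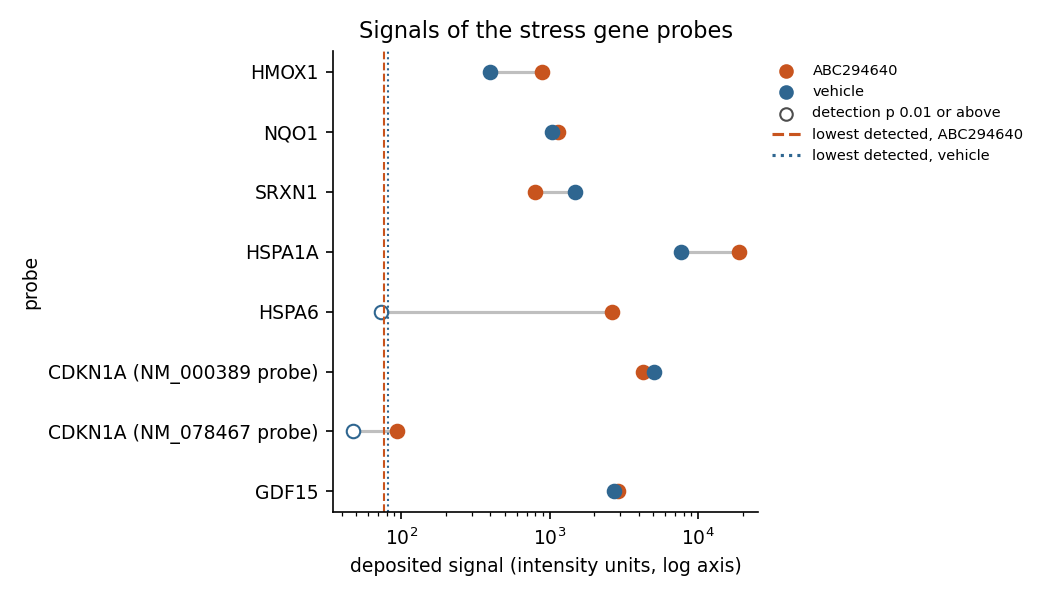
Deposited signal in intensity units (log axis) of each stress probe, 1 point per array, with ABC294640 in orange and vehicle in blue. Open points have a detection p of 0.01 or above, and the vertical lines mark the lowest detected signal of each array. HSPA6 lies at 2655 units with ABC294640 and 73.4 with vehicle, while both GDF15 points nearly coincide.

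HSPA6 had the largest difference of the group. It encodes HSP70B', a human HSP70 chaperone known for very low levels in unstressed cells and strong induction by proteotoxic stress. Its probe, ILMN_1806165, had 2655 units with ABC294640 and 73.4 with vehicle. It was clearly above background with ABC294640 (detection p of 0) and not detected with vehicle, where the detection p was 0.0247. Against the detection floor it was at least 77.8-fold higher with ABC294640, a log2 bound of 6.28. The bound was smaller without background correction (5.25), with an offset of 50 (5.35) and in the authors' deposited normalized values (5.21). A second HSPA6 probe, ILMN_1658383, had 311.4 units with ABC294640 and 93.5 with vehicle, and was detected on both arrays. Its log2 ratio was 2.98, or 7.90-fold higher, so both HSPA6 probes pointed the same way and differed in size. The vehicle signal of the second probe lay near the lowest detected signal of 81.2, and its log2 ratio was 2.24 without background correction. The nearby pseudogene HSPA7 had 1045 units with ABC294640 and 85.9 with vehicle, also near that limit. Its log2 ratio was 4.94, and 3.97 in the authors' deposited normalized values. HSPA6 and HSPA7 are near-identical in sequence, and a probe for one may also take up RNA of the other.

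HSPA1A encodes the main stress-inducible cytosolic HSP70. Its probe, ILMN_1789074, had 18952 units with ABC294640 and 7727 with vehicle, well above background on both arrays. The log2 ratio was 1.19, or 2.28-fold higher, and median scaling gave 2.11. Its signal with ABC294640 was 75.9% of the brightest probe on that array, against 30.2% with vehicle. Whether its ratio is compressed near the top of the signal range was not tested. HSPA1B, the adjacent gene with an almost identical coding sequence, had 19605 units with ABC294640 and 6195 with vehicle, or 3.18-fold higher. Whether either probe also takes up RNA of the other gene was not tested.

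The promoters of both heat shock members are shown because heat shock genes carry a recognisable DNA element there. HSF1 binds repeats of GAA in alternating orientation, and the smallest inverted pairs read GAANNTTC or TTCNNGAA, which together cover both strands. The sequences are the 250 bases before the transcript start from RefSeq (GRCh38.p14), written 5′ to 3′ on the plus strand for HSPA6 (chr1:161524290-161524539) and HSPA1A (chr6:31815293-31815542) and on the minus strand for DNAJB1 (chr19:14518398-14518647), a heat shock gene described below. Capitals mark the inverted pairs, and overlapping pairs run together.
HSPA6: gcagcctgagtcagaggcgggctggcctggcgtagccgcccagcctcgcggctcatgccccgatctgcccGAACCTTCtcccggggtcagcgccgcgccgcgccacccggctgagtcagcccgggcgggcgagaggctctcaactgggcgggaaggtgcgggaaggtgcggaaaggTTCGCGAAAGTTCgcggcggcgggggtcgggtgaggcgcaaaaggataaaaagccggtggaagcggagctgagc
HSPA1A: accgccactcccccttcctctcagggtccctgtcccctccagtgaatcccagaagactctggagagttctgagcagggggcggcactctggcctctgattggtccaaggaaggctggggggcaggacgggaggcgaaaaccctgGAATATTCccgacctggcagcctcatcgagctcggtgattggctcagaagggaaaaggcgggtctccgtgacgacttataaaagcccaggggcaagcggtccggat
DNAJB1: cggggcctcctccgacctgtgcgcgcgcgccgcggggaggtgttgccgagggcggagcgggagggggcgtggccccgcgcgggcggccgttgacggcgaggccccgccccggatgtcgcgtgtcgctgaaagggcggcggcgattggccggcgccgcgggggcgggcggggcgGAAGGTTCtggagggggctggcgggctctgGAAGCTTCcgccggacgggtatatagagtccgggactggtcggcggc

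HSPA6 held 3 such pairs, ending 172, 66 and 61 bases before the start, and the last overlaps the pair before it. HSPA1A held 1, ending 98 bases before the start, and HSPA1B held 1 at 97 bases. The DNAJB1 start shown held 2 pairs, at 69 and 39 bases, while 2 other DNAJB1 starts held 0. BAG3, which had the largest difference in the heat shock list described below, also held 0. Of all 34943 promoters of the same length, 11.6% held at least 1 pair and 1.32% held 2 or more. Among 31 promoters of that list, where some genes have several starts, 13 held at least 1. NQO1, SRXN1, CDKN1A and GDF15 held none in this window. The core of the antioxidant response element, TGANNNNGC on either strand, occurred once in NQO1, HSPA1A and GDF15 and in 2 overlapping positions in HSPA6, and in 35.1% of all promoters. No member held a p53 half-site in this window, and 5.58% of all promoters did. Promoters matched 6 of the 7 genes, all but HMOX1. A match is a match of letters and not a measured binding site.

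The HSP70 family, listed after the data were seen, showed that the size of the difference varied between members. Of 16 genes of the HSP70 and related HSP110 class, 15 were detected, 4 (26.7%) were at least 2-fold higher and 0 at least 2-fold lower, against 6.99% and 8.35% of the 10893 detected genes. This count includes HSPA6 and HSPA1A, which were picked with earlier results known. The 4 were HSPA6, HSPA1B, HSPA1A and HSPA5, the chaperone of the endoplasmic reticulum, with 1223 units with ABC294640 and 887.1 with vehicle (log2 ratio 1.09). HSPA5 fell short of 2-fold without scaling between the arrays (0.49) and in the authors' deposited normalized values. HSPA8, the constitutive cytosolic HSP70, had 9879 units with ABC294640 and 5680 with vehicle (0.74, and 1.61 after median scaling). HSPA9, the mitochondrial member, had 2930 units with ABC294640 and 4133 with vehicle (-0.29, and 0.31 after median scaling). HSPA1L, a testis-enriched gene next to HSPA1A, had 146.4 units with ABC294640 and 242.6 with vehicle (-0.13). Without scaling between the arrays HSPA2, HSPA4L and HSPA14 were past 2-fold lower, at -1.03, -1.23 and -1.20. In that setting 5094 of the 18233 detected probes were at least 2-fold lower.

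**Figure D2:**
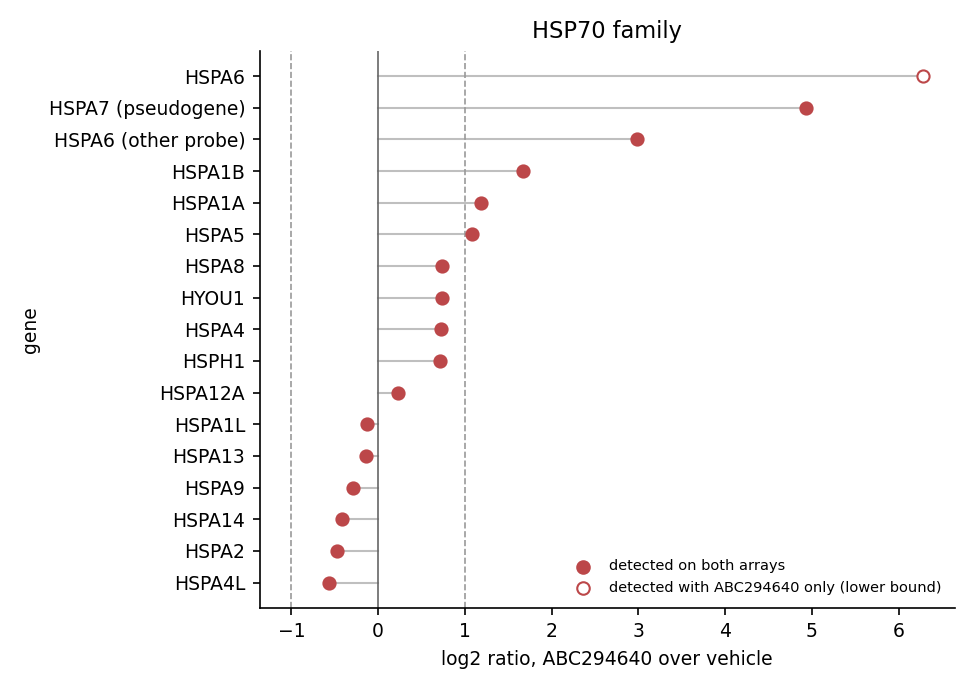
Log2 ratio of ABC294640 over vehicle for the detected genes of the HSP70 family, 1 point per gene at its brightest detected probe, with the second HSPA6 probe and the pseudogene HSPA7 added. Dashed lines mark 2-fold, and the open point is a lower bound. HSPA6 stands at 6.28 and HSPA4L lowest at -0.56.

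Other genes of the heat shock response were often higher as well. Of 22 listed genes apart from the members, 21 had a named probe and all 21 were detected. Of these, 8 (38.1%) passed 2-fold upwards and 0 downwards with ABC294640, against the same 6.99% and 8.35% of all detected genes. The 8 include HSPA1B, and whether its probe also reads the member HSPA1A was not tested. This list and those of NRF2 and p53 targets were chosen with earlier results of these data known, so their shares are descriptions. The list's median log2 ratio was 0.83, against -0.04 over all detected genes. Median scaling gave 16 genes at least 2-fold higher, and a threshold of 1.5-fold also gave 16. Of all 18233 detected probes, 2059 were higher with median scaling and 3139 past 1.5-fold, against 1346 as reported.

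BAG3, a co-chaperone that links HSP70 to selective autophagy, had 5581 units with ABC294640 and 890.3 with vehicle, or 8.35-fold higher. DNAJB1, the HSP40 partner of HSP70, had 8410 units with ABC294640 and 1648 with vehicle, or 6.07-fold higher. These were the largest differences in the list. DEDD2, a death effector domain protein, had 6704 units with ABC294640 and 2214 with vehicle (log2 ratio 1.83). SERPINH1, the collagen chaperone HSP47, had a log2 ratio of 1.58. FKBP4, an immunophilin that works with HSP90, had 1.49. Both fell short of 2-fold without scaling between the arrays, with 0.89 for SERPINH1 and 0.72 for FKBP4. CRYAB, a small heat shock protein, had 14845 units with ABC294640 and 5180 with vehicle (1.46). HSP90AB1, the constitutive cytosolic HSP90, had 3644 units with ABC294640 and 1733 with vehicle (1.44).

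Several chaperones were not called past 2-fold under the reported processing. HSPH1, an HSP110 nucleotide exchange factor, had 11256 units with ABC294640 and 6578 with vehicle (log2 ratio 0.71, and 1.59 after median scaling). HSP90AA1, the inducible cytosolic HSP90, had 20948 units with ABC294640 and 20757 with vehicle (0.04, and 0.82 after median scaling). The mitochondrial chaperones HSPD1 and HSPE1 had log2 ratios of -0.06 and -0.19 at their brightest probes, which turned to 0.89 and 0.23 after median scaling. Further detected HSPD1 probes gave 0.52 and 0.41, and a further HSPE1 probe 0.00. HSPB8, the small heat shock protein that acts with BAG3, was detected with ABC294640 only, at 91.2 units against 61.1 with vehicle, where the deposited signals differed 1.49-fold. After background correction and quantile normalization its log2 bound was 0.85, with 0.38 without scaling between the arrays and 1.19 after median scaling. A lower bound does not settle whether HSPB8 passed 2-fold.

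HMOX1 was the one oxidative stress member past 2-fold. It encodes haem oxygenase 1, which breaks haem down to biliverdin, iron and carbon monoxide. Its probe, ILMN_1800512, had 891.5 units with ABC294640 and 395.4 with vehicle, above background on both arrays. The log2 ratio was 1.96, or 3.90-fold higher, and 301 of the other detected probes had a larger ratio or bound. Without scaling between the arrays it was 1.27, and the deposited signals differed 2.25-fold. The 1000 detected probes nearest in mean signal had a spread of log2 ratios of 0.71 (median absolute deviation scaled to an SD), a spread between genes and not between replicates.

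NQO1 and SRXN1 did not reach 2-fold. NQO1 encodes a quinone reductase and is among the best known NRF2 targets. Its probe ILMN_1720282 had 1147 units with ABC294640 and 1039 with vehicle, with a log2 ratio of 0.75, and 0.15 without scaling between the arrays. A second, dim NQO1 probe, ILMN_2354953, had 90.3 units with ABC294640 and 91.2 with vehicle (0.57, and 0.04 without scaling). SRXN1 encodes sulfiredoxin, which repairs over-oxidised peroxiredoxins. Its probe, ILMN_1804822, had 797.8 units with ABC294640 and 1476 with vehicle, with a log2 ratio of -0.31, and -0.92 without scaling between the arrays. The 3 oxidative stress members thus ranged from -0.31 to 1.96.

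**Figure D3:**
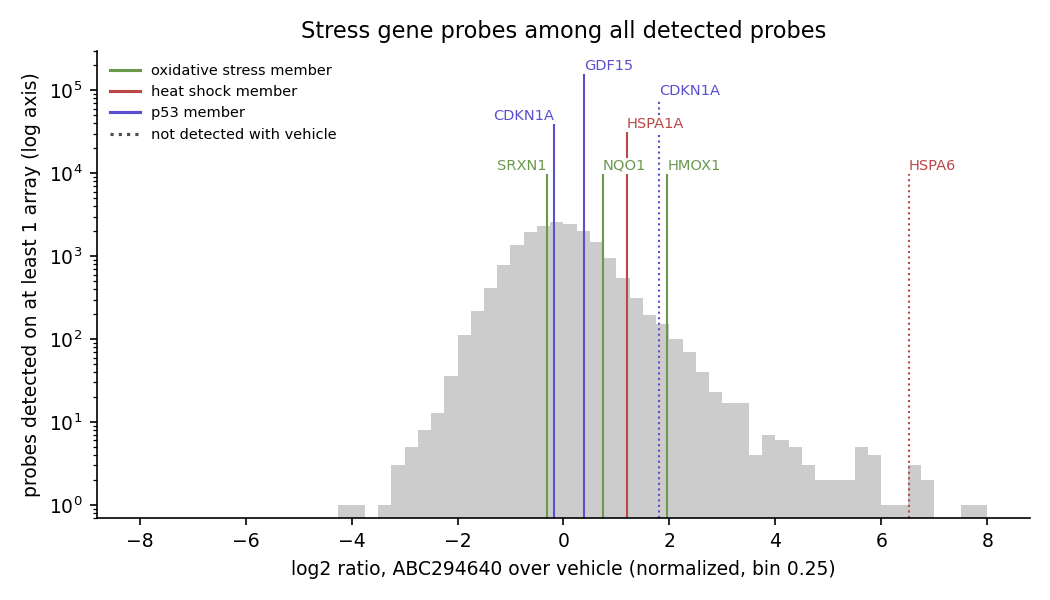
Histogram of log2 ratios (ABC294640 over vehicle, bins of 0.25) of all 18233 detected probes, with counts on a log axis and a line for the measured ratio of each stress probe. Dotted lines are probes not detected with vehicle. HSPA6 lies in the far right tail. SRXN1, GDF15 and the CDKN1A probe annotated to NM_000389 (-0.18) lie near the centre, and the dim CDKN1A probe, at 1.81 as measured, lies to the right.

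Other NRF2 targets were near the centre of the distribution. Of 24 listed genes apart from the members, 20 had a named probe and 17 were detected. None was at least 2-fold higher or lower, against 6.99% and 8.35% of all detected genes. With 17 genes, a count of 0 is not far from these shares. The list's median log2 ratio was 0.00 with a range of -0.56 to 0.73, and the median changed sign with the scaling, with 0.44 after median scaling and -0.37 with none. GCLM, the modifier subunit of the enzyme that limits glutathione synthesis, had 270.6 units with ABC294640 and 457.4 with vehicle (log2 ratio -0.05), while a dimmer GCLM probe, ILMN_2225974, had 148.0 and 101.8 units in the same order (1.48, and 0.84 without scaling between the arrays). TXNRD1, thioredoxin reductase, had 426.4 units with ABC294640 and 976.5 with vehicle (-0.56, and -1.27 without scaling between the arrays). SLC7A11, the cystine importer, was not detected on either array. SQSTM1, the autophagy receptor p62, had 6659 units with ABC294640 and 6698 with vehicle, a log2 ratio of 0.00 to 2 decimals. In the haem and iron branch next to HMOX1, BLVRB, a biliverdin reductase, had a log2 ratio of 0.08, FTL, the ferritin light chain, -0.39, and the haem transporter SLC48A1 0.00. BLVRB and SLC48A1 were at -0.49 and -0.79 without scaling, and FTL at 0.51 after median scaling.

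No p53 member was called past 2-fold, but the dim CDKN1A probe gave only a lower bound, so its call is open. CDKN1A encodes p21, the cyclin-dependent kinase inhibitor through which p53 arrests the cell cycle. Its probe ILMN_1784602, annotated to the transcript NM_000389, had 4247 units with ABC294640 and 5084 with vehicle. The log2 ratio was -0.18, and it had the opposite sign after cyclic loess (0.03) and median scaling (0.55). The probe ILMN_1787212, annotated to NM_078467, had 93.8 units with ABC294640 and 47.2 with vehicle, where its detection p was 0.887. Against the detection floor it was at least 1.90-fold higher, a log2 bound of 0.93. The bound depended on the processing, with 1.26 after median scaling, 0.45 without scaling between the arrays, 0.53 without background correction, 0.56 with an offset of 50 and 0.61 in the authors' deposited normalized values. Taken as measured, without the floor, its log2 ratio was 1.81. Its signal with ABC294640 was 1.23 times the lowest detected signal. The 2 CDKN1A probes therefore disagreed, and the probe with the higher deposited signals gave the smaller difference.

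GDF15, a secreted cytokine of the TGF-beta family that marks cell stress, was read by the probe ILMN_2188862, which had 2882 units with ABC294640 and 2723 with vehicle. Its log2 ratio was 0.39, with a range of 0.08 to 0.89 over the other processing settings. Among the 1000 detected probes nearest in mean signal, 77.9% had a lower ratio.

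Other p53 targets lay mostly below 0. Of 28 listed genes apart from the members, 26 had a named probe and all 26 were detected. Of these, 6 (23.1%) were at least 2-fold lower and 1 (3.85%) at least 2-fold higher, against 8.35% and 6.99% of all detected genes. The median log2 ratio was -0.51, against -0.04 over all detected genes, and 21 of the 26 lay below 0. Without scaling between the arrays 17 were at least 2-fold lower, but so were 5094 of the 18233 detected probes, against 1269 as reported. The median stayed below 0 in all 7 alternatives of background correction, scaling or source, from -1.11 to -0.30. The -1.11 came without scaling, where the median over all detected probes was -0.65.

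TP53INP1, which acts in p53-dependent cell death and in autophagy, had 108.9 units with ABC294640 and 572.8 with vehicle, or 4.47-fold lower. SESN1, a sestrin that restrains mTORC1, had 82.4 units with ABC294640 and 327.3 with vehicle, or 4.07-fold lower. Its ABC294640 signal lay near the lowest detected signal of 76.2, so the size of the fold depended on the background correction. The log2 ratio was -2.02 as reported and -1.47 without that correction, still past 2-fold. RRM2B, a ribonucleotide reductase subunit that supplies nucleotides for repair, had 209.7 units with ABC294640 and 1108 with vehicle, or 3.76-fold lower. XPC, which recognises damaged DNA in nucleotide excision repair, had 665.3 units with ABC294640 and 2640 with vehicle, or 2.90-fold lower. SPATA18, a protein of mitochondrial quality control, and TNFRSF10B, a receptor for the death ligand TRAIL, had log2 ratios of -1.25 and -1.13. A dim second probe of FBXO22, a ubiquitin ligase subunit, had 69.9 units with ABC294640, where it was not detected, and 194.1 with vehicle, a log2 bound of -1.40 (-0.91 without background correction), while its brightest probe gave -0.28. The second TNFRSF10B probe gave -0.93, and median scaling left the first at -0.68, short of 2-fold.

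ZMAT3, an RNA-binding zinc finger protein, was the p53 target past 2-fold in the other direction, but its probes disagreed. The brightest, ILMN_2361104, had 6153 units with ABC294640 and 2367 with vehicle (log2 ratio 1.61). The other 2, ILMN_1654262 and ILMN_1865764, gave -1.52 and -2.01. By the median over each gene's detected probes, 7 p53 targets were at least 2-fold lower and 0 at least 2-fold higher. It was the only one of 38 listed genes with several detected probes whose probes lay past 2-fold in opposite directions. MDM2, the ubiquitin ligase that degrades p53, had 165.0 units with ABC294640 and 166.3 with vehicle (0.76, and 0.01 without scaling between the arrays). BBC3, the pro-death protein PUMA, had 172.9 units with ABC294640 and 346.9 with vehicle (-0.39, and -1.18 without scaling).

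**Figure D4:**
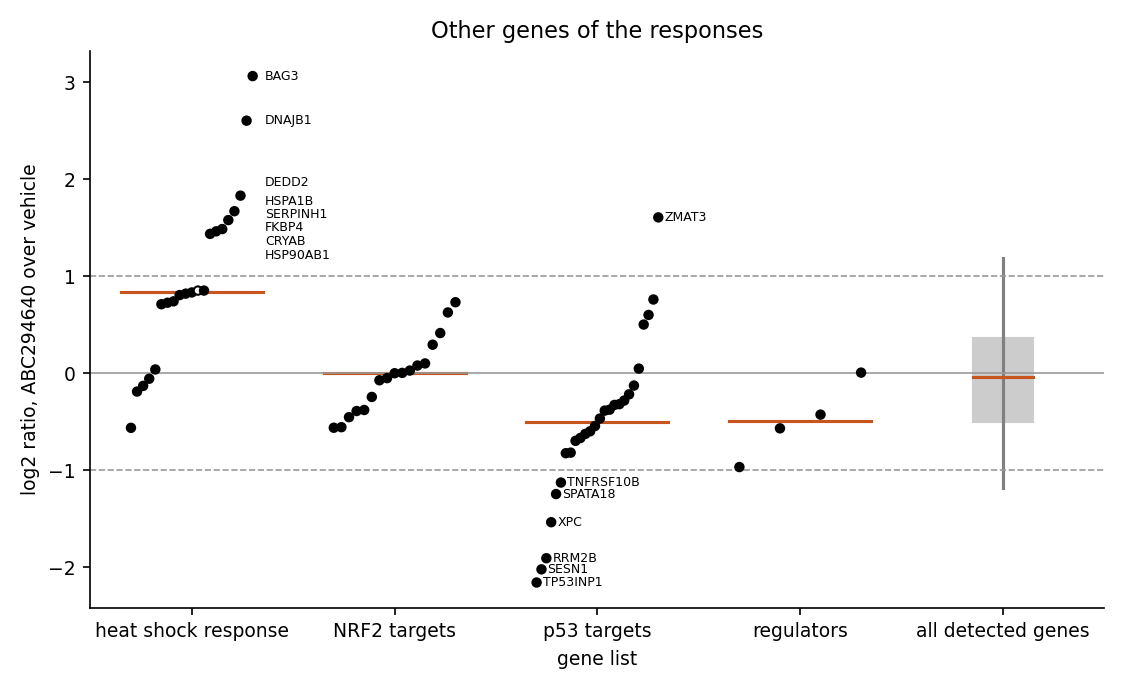
Log2 ratio of ABC294640 over vehicle for each detected gene of 4 lists that leave out the members, with the list median as an orange line and names for genes past 2-fold (dashed lines). The last column gives all detected genes, with a box from the 25th to the 75th percentile and a line from the 5th to the 95th. The heat shock list lies mostly above 0, the NRF2 list around it and the p53 list mostly below.

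Regulators of the 3 responses were less informative. Of 9 listed genes, 7 had a named probe and 4 were detected. None of the 4 was past 2-fold at its brightest probe, against 6.99% of all detected genes higher and 8.35% lower. ATM, the kinase that signals DNA breaks to p53, had the largest difference, with 177.6 units with ABC294640 and 512.4 with vehicle (log2 ratio -0.97, and -1.76 without scaling between the arrays). Its second probe, ILMN_2370825, had 140.4 units with ABC294640 and 426.6 with vehicle (-1.14), past 2-fold lower, but not without background correction (-0.94), with an offset of 50 or in the authors' deposited normalized values. NFE2L2, which encodes NRF2, had 717.0 units with ABC294640 and 1569 with vehicle (log2 ratio -0.57, and -1.17 without scaling between the arrays). KEAP1 had 407.4 units with ABC294640 and 664.0 with vehicle (0.00, and -0.76 without scaling). BACH1, a repressor of HMOX1, and HSF1 were not detected on either array. The 6 measured genes often used to scale expression data had log2 ratios from -0.46 to 0.70 at their brightest probes. A dimmer YWHAZ probe, ILMN_1669286, had 148.7 units with ABC294640 and 463.0 with vehicle (-1.16), past 2-fold lower but not under the same 3 alternatives, and an ACTB probe, ILMN_2038777, gave 0.83. After median scaling the brightest ACTB and GAPDH probes were past 2-fold higher, at 1.59 and 1.14, and without scaling TBP was past 2-fold lower (-1.26). Of all 18233 detected probes, 2059 were at least 2-fold higher after median scaling and 5094 at least 2-fold lower without scaling.

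**Figure D5:**
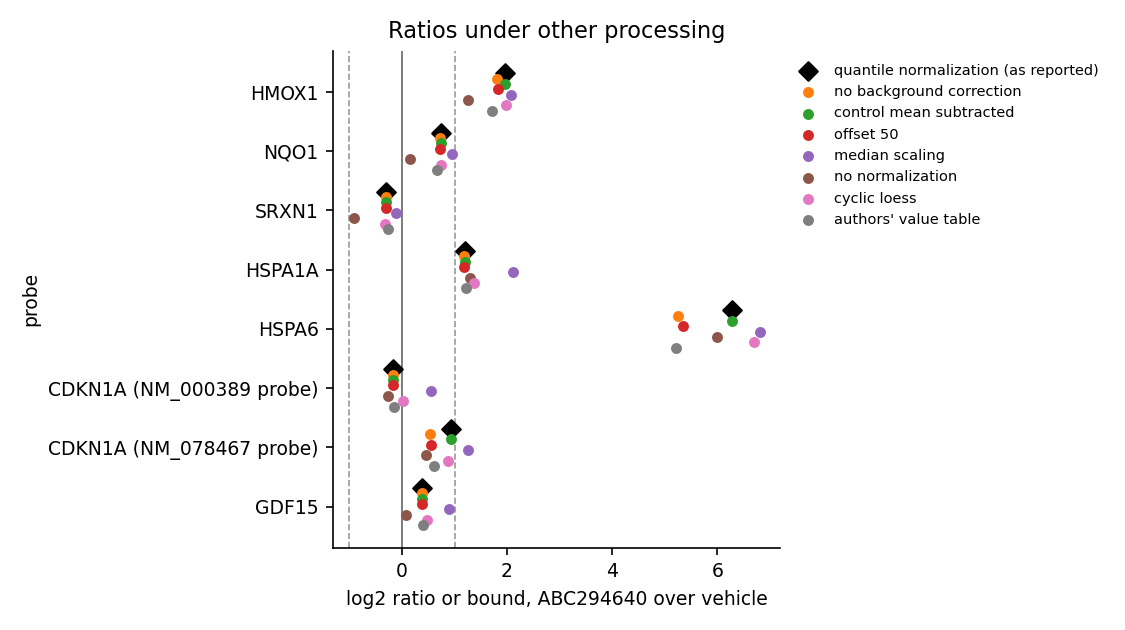
Log2 ratio or lower bound of ABC294640 over vehicle for each stress probe under the reported processing (black diamonds) and 7 alternatives (coloured points), with dashed lines at 2-fold. HMOX1, HSPA1A and HSPA6 stay right of the 2-fold line in all of them, and the CDKN1A probe annotated to NM_000389 crosses 0.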

How the data were processed

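RNA was labelled with biotin and hybridised to Illumina Expression BeadChips, per the labels' protocols, with 1 array per group. The authors deposited 1 intensity per probe and array, without normalization per the file name, and a detection p-value beside each. The submitters' processing notes name GenomeStudio, with settings not stated. The authors also deposited normalized intensity values, with medians of 62.2 on both arrays. They are linear and uncentred, follow the deposited signals in rank (Spearman rho 1.00 on each array) and still hold the background. Their direction is settled by the column names, and the method behind them is unstated.

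Of 47323 probes, 5 with placeholder zeros were left out. In R 4.3.3 with limma 3.58.1 the background was corrected by normexp with negative controls inferred from the detection p-values (mean 53.8 ± 7.13 for ABC294640 and 56.1 ± 8.44 for vehicle, SD over controls), followed by an offset of 16, the log2 and quantile normalization between the arrays. Symbols came from the platform's annotation, which named 30112 probes with 1 gene, 8 with several and left 17198 unnamed here. A gene took the value of its brightest detected probe.

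The members and gene lists were chosen with earlier results of these data known. Named list genes are the first 3 of each response and regulator list and up to 6 past 2-fold in each direction, and the further genes named were chosen after their values were seen. With 1 array per group no test was possible, so calls rest on a 2-fold difference. The procedure was also run on simulated arrays with known fold changes. Both simulated arrays were built from the vehicle signals, so that run cannot show how well the scaling suits the real arrays. The alternatives changed the background correction, offset, scaling, source of values, detection filter, fold threshold, bound and choice of probe.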

Additional observations from a re-analysis of the deposited data

How the results depend on the processing

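HMOX1, HSPA1A and HSPA6 remained at least 2-fold higher in all 7 alternatives of background correction, offset, scaling or source. HSPA1A moved to 2.11 with median scaling. HSPA6 moved to 5.25 without background correction, 5.35 with an offset of 50 and 5.21 in the authors' normalized values. The CDKN1A probe annotated to NM_000389 moved to 0.55 with median scaling. Member probes at least 2-fold higher numbered 3 as reported, 5 past 1.5-fold and 2 to 4 otherwise. All detected probes numbered 1346 higher and 1269 lower. Median scaling gave 2059 higher, no scaling 548 higher and 5094 lower, the authors' values 895 and 696, no background correction 734 lower and an offset of 50 777 lower. By construction, a 1.5-fold threshold gave 3139 and 3380, and 3-fold 533 and 221. Heat shock genes higher, 8 as reported, numbered 16 with median scaling, 16 past 1.5-fold and 4 past 3-fold, and 1 was lower without scaling. The p53 targets lower, 6 as reported, numbered 17 without scaling, 12 past 1.5-fold, 3 past 3-fold and 7 by the median over probes. Those higher, 1 as reported, numbered 3 past 1.5-fold and 0 by the median over probes. NRF2 targets past the threshold, 0 as reported, numbered 2 higher at 1.5-fold and 3 lower without scaling. Regulators lower, 0 as reported, numbered 3 without scaling, 1 past 1.5-fold and 1 by the median over probes. The cause of the changes with scaling was not tested. No paired analysis was possible because there was only 1 array in each group. Signal over background limits HSPA6 and the dim CDKN1A probe with vehicle to bounds.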

Other observations

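Related gene families were listed after the data were seen and are given as values only. Of all 10893 detected genes, 6.99% were at least 2-fold higher and 8.35% at least 2-fold lower. After median scaling 2059 of the 18233 detected probes were at least 2-fold higher, and without scaling 5094 were at least 2-fold lower. Among 6 BAG co-chaperones 5 were detected, and BAG3 was the one past 2-fold, with a log2 ratio of 3.06. BAG2, a co-chaperone that inhibits client ubiquitination, had 323.9 units with ABC294640 and 743.0 with vehicle (-0.53), and BAG5 had 425.0 and 815.8 units in the same order (-0.27). Without scaling between the arrays BAG2 was past 2-fold lower (-1.30), and BAG5 was at 2-fold lower. Among 8 measured small heat shock proteins 5 were detected, and their log2 ratios or bounds ran from 0.42 to 1.46. CRYAB was the one called past 2-fold under the reported processing. HSPB1, the abundant HSP27, had 16718 units with ABC294640 and 8764 with vehicle (0.80), and passed 2-fold with median scaling (1.74) and cyclic loess (1.01). The bounds of HSPB8 and CRYAA passed 2-fold with median scaling (1.19 and 1.26).

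Of the cyclin-dependent kinase inhibitors related to CDKN1A, CDKN1B (p27) had 287.5 units with ABC294640 and 631.0 with vehicle (log2 ratio -0.46). CDKN2D (p19) had 622.0 units with ABC294640 and 1475 with vehicle (-0.67). CDKN1C, CDKN2A and CDKN2B were not detected on either array. None of the 3 detected kinase inhibitor genes reached 2-fold at its brightest probe, against 6.99% of all detected genes higher and 8.35% lower. Without scaling CDKN1B and CDKN2D were past 2-fold lower (-1.24 and -1.30). The median over all detected probes was then -0.65, and 5094 of the 18233 were at least 2-fold lower.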
